A study of Mus musculus with 10 samples.

Results

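The 37 genes described here encode the machinery of autophagy and the lysosomal proteins that complete it. They were chosen by name, as a list of autophagy and lysosome genes, and all 37 were found among the 54232 genes of the deposited table. RNA was sequenced from the gastrocnemius, a calf muscle, of 5 desmin knock-out mice (genotype Des -/-) and 5 wild-type mice (Des wt/wt) of the strain B6J.129Sv-Destm1Cba/Cscl at 3 months of age. The wild-type mice were littermates, the null allele is carried in all tissues, and the labels name no treatment. Desmin is the main intermediate filament protein of muscle fibers and links the myofibrils to each other and to the membrane. The labels name the gastrocnemius alone, whereas the study's text adds the neighbouring plantaris. Its methods describe the RNA of each genotype as pooled, although every mouse has its own column in the table, and each column was taken as 1 mouse.

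Macroautophagy delivers cytoplasm, protein aggregates and organelles to the lysosome. A kinase complex around ULK1 and a lipid kinase complex around Beclin 1 start the autophagosome, a pair of ubiquitin-like conjugation reactions attach the ATG8 proteins (LC3 and GABARAP) to its membrane, and receptors such as p62 (Sqstm1) bind the cargo to them. The autophagosome then fuses with a lysosome, whose hydrolases, among them the cathepsins, degrade the content. The transcription factors TFEB and TFE3 activate many of these genes. Skeletal muscle depends on this route for the turnover of mitochondria, glycogen and filament proteins, and inherited defects of lysosomal genes such as Gaa and Lamp2 cause muscle disease.

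TFEB and its relatives are known to bind the palindrome TCACGTGA, which contains the shorter E-box CACGTG. RefSeq promoters of GRCm38.p6, each from 250 bases before to 50 bases after a start site, were found for 30 of the 37 genes, which had 35 promoters. None was found for Becn1, Atg16l1, Npc1, Bnip3l, Map1lc3a, Atg12 and Ctsb, so these genes were not searched for motifs. The letters TCACGTGA, read on both strands, were present in 4 of these 35 promoters (11.4%) and in 0.974% of the 32851 promoters of the genome. The genes were Atg3, Ctsa, Ctsd and Mcoln1. The sites are shown because Tfeb itself is among the 37 genes, with the motif in capitals, 5′ to 3′ on the strand of the gene.
Atg3, chr16:45158746-45158775, plus strand, motif from 72 bases before the start: ggagagtcgagTCACGTGAggccttaggtg
Ctsa, chr2:164833749-164833772, plus strand, motif from 13 bases before the start: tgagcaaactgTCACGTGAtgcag
Ctsd, chr7:142387908-142387937, minus strand, motif from 99 bases before the start: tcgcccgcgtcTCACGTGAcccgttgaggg
Mcoln1, chr8:3500462-3500491, plus strand, motif from 46 bases before the start: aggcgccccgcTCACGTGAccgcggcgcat
Ctsa holds another copy of the motif, 4 bases after the start, which is not shown.

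The shorter E-box was present in 10 of the 35 promoters (28.6%) and in 7.15% of all promoters. Besides the 4 genes above these were Atg5, Atg7, Bnip3, Ctsl, Gaa and Lamp1. Of the 10 genes with an E-box, 2 passed the test for a difference between the genotypes, Gaa (-0.44) and Ctsl (0.33), in opposite directions. The test was passed by 16.2% of the 37 genes and by 13.7% of all tested genes. The call of Ctsl was the least stable one, as described below. A link between the E-box and the genotype was not tested. The E-boxes of Gaa and Ctsl are shown in capitals on the strand of the gene because these genes were called.
Gaa, chr11:119267811-119267840, plus strand, motif from 140 bases before the start: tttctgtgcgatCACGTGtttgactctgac
Ctsl, chr13:64370739-64370768, minus strand, motif from 236 bases before the start: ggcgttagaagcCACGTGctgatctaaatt

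A FOXO motif, TGTTTAC, was found in 0 of the 35 promoters against 3.65% of all promoters. The antioxidant response motif TGACNNNGC was found in 5 of 35 (14.3%, for Ctsd, Ctsz, Hexa, Map1lc3b and Ulk2) against 12.4% of all promoters. A match is a description of these letters and does not show binding.

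The values are rlog values, a log2 measure of expression that is scaled for library size and drawn towards each gene's mean, so that differences are smaller than those of the counts. A difference is given throughout as knock-out minus wild-type in these log2 units. The genotype was visible in Des itself, which ranged from 16.10 to 17.74 in wild-type mice but only reached 11.76 to 11.89 in the knock-out. Genes of muscle fibers were among the most abundant in wild-type muscle, as the labelled muscle would have. The means were 20.58 for the fast myosin gene Myh4, 20.29 for Acta1 and 20.07 for Ckm. Wild-type mouse 3 stood apart from the others: its mean correlation with the mice of its genotype was 0.982, compared with 0.989 to 0.997 in the other mice, and its summed linear values were 1.48 times the median against 0.949 to 1.06 times in the others. Differences that changed sign or by more than 1.5-fold without this mouse are given with and without it. No counts were used, so the sequencing depth behind the values is unknown.

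Most autophagy and lysosome genes differed little between desmin knock-out and wild-type muscle. Of the 37 genes, all of which passed the expression limit, 4 were lower in desmin knock-out muscle at an adjusted p under 0.05 (limma): the kinase gene Ulk1, the receptor gene Optn, the cholesterol transporter gene Npc1 and the glycogen-degrading enzyme gene Gaa. These 4 genes (10.8%) compare with 5.99% of all tested genes that were lower. Higher were 2 genes (5.41%), the cathepsin genes Ctsk and Ctsl, against a background of 7.70% of all tested genes. In either direction 6 genes (16.2%) were called, against 13.7% of the 14289 tested genes, so the share of called genes was close to that of the whole transcriptome. In a whole muscle, fewer cells of a type and less RNA per cell cannot be told apart.

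The median difference over the 37 genes was -0.02, with 15 of the means higher and 22 of them lower in the absence of desmin. The median size of the difference, regardless of its sign, was 0.10, compared with 0.17 over all tested genes. The 5 knock-out mice were all below the 5 wild-type mice for 4 genes (6.97% of all tested genes did so) and above them for 1 gene (7.45% of all tested genes). The remaining 31 genes had differences between -0.45 and 0.51. The 95% interval of all 31 lay within a change of 1 log2 unit in either direction, and for 27 of them it lay within 0.58, which is 1.5-fold. For these 27 genes a larger difference than 1.5-fold on the rlog scale was thus outside the interval, whereas 4 genes had intervals that reached further.

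**Figure D1:**
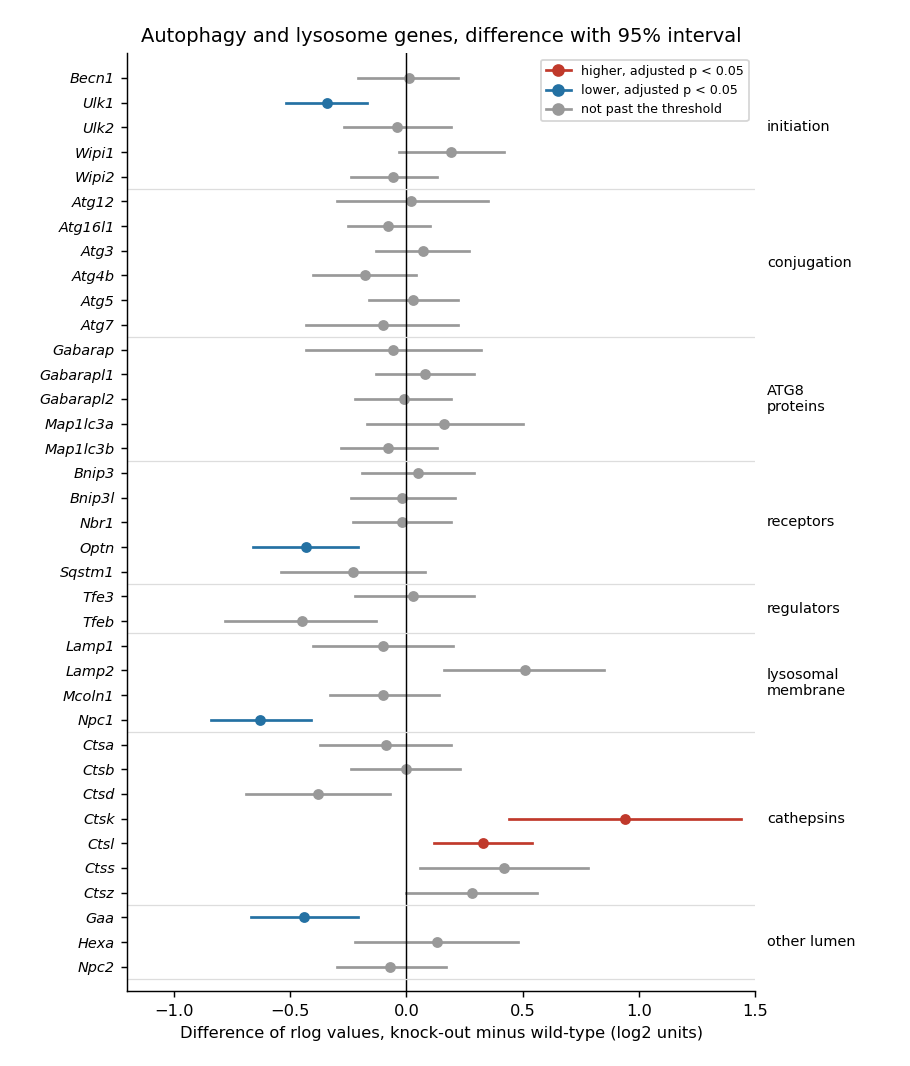
Difference of the rlog values (knock-out minus wild-type, log2 units, x axis) of the 37 autophagy and lysosome genes (y axis, grouped by role), with 95% intervals from limma. The 4 lower genes (blue) stand in 4 different groups, the 2 higher genes (red) are both cathepsins, and the 31 grey genes did not pass an adjusted p of 0.05.

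Among the genes that start the autophagosome, Ulk1 was the one of 5 that fell. ULK1 is the kinase that responds to nutrients through mTORC1 and AMPK and phosphorylates the other initiation factors. Ulk1 (ENSMUSG00000029512, chromosome 5, 110784488 to 110810097, GRCm38) had values of 10.95, 11.10, 11.14, 11.08 and 10.99 in desmin knock-out mice 1 to 5. In wild-type mice 1 to 5 the values were 11.43, 11.39, 11.50, 11.24 and 11.41. All knock-out mice were below all wild-type mice, with means of 11.05 ± 0.08 and 11.39 ± 0.10 (SD, n = 5 each). The difference was -0.34 (SE 0.08, 95% interval -0.52 to -0.17, adjusted p = 0.01319, limma), or 78.9% of the wild-type level on the rlog scale. Without wild-type mouse 3 it was -0.32.

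Its relative Ulk2 differed by -0.04 (SE 0.11, and -0.07 without wild-type mouse 3), and Becn1, the gene of Beclin 1, by 0.01 (SE 0.10, and 0.09 without that mouse). The phosphoinositide-binding proteins WIPI1 and WIPI2 bring the conjugation machinery to the forming membrane. Wipi1 had a difference of 0.19 (SE 0.11, adjusted p = 0.2577) and Wipi2 one of -0.06 (SE 0.08, and -0.01 without that mouse). None of these 4 genes passed the threshold.

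The conjugation enzymes and the ATG8 proteins gave no call in either direction. The 6 conjugation genes were Atg7 (the shared activating enzyme), Atg3 (the enzyme that transfers LC3 to the lipid), Atg5, Atg12 and Atg16l1 (the complex that directs this step) and Atg4b (the protease that prepares LC3 and releases it again). Their differences ranged from -0.18 for Atg4b (SE 0.10, adjusted p = 0.2668) to 0.07 for Atg3 (SE 0.09). These were -0.10 and 0.11 without wild-type mouse 3, and Atg5 went from 0.03 to 0.08. Atg16l1, with -0.08, was the most even of the 6 in wild-type mice (SD 0.08). Atg7 and Atg12 had wide intervals, -0.43 to 0.22 and -0.30 to 0.35, and both had wild-type mouse 3 far from the other wild-type mice. The value of Atg7 in that mouse was 9.04 against 8.19 to 8.28 in the other 4, and that of Atg12 was 9.47 against 10.21 to 10.37. Without that mouse the differences were 0.06 for Atg7 and -0.14 for Atg12, each with the opposite sign.

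The 5 ATG8 genes encode the LC3 and GABARAP proteins, and LC3 protein on membranes is a common marker of autophagosomes. Map1lc3a differed by 0.16 (SE 0.16), Map1lc3b by -0.08 (SE 0.10), Gabarap by -0.06 (SE 0.17), Gabarapl1 by 0.08 (SE 0.10) and Gabarapl2 by -0.01 (SE 0.10). Values of both genotypes overlapped for all 5. Leaving out wild-type mouse 3 gave 0.28 for Map1lc3a, -0.01 for Map1lc3b, 0.13 for Gabarap and 0.05 for Gabarapl2, the latter pair with the opposite sign. Gabarap had the largest SD of any of the 5, 0.43 in wild-type mice, with 13.59 in mouse 3 and 12.58 to 12.86 in the others. Transcript levels say nothing of how much LC3 is bound to membranes.

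Of the 5 cargo receptor genes, Optn was the one that fell. Optineurin binds ubiquitinated cargo and LC3 and takes part in the removal of damaged mitochondria. Optn (ENSMUSG00000026672, chromosome 2, 5020642 to 5064051) had values of 11.87, 11.86, 11.85, 11.89 and 11.86 in desmin knock-out mice 1 to 5. The wild-type mice had 12.39, 12.35, 12.55, 12.29 and 11.93. The knock-out mice lay close together and below every wild-type mouse, of which mouse 5 came nearest to them. The means were 11.87 ± 0.02 and 12.30 ± 0.23 (SD, n = 5 each), and the difference was -0.43 (SE 0.11, 95% interval -0.66 to -0.21, adjusted p = 0.01503, limma), or 74.0% of the wild-type level on the rlog scale. Without wild-type mouse 3 it was -0.37. Optn shares 73 exon bases with 4930551O13Rik on the other strand, whose mean value was -1.10.

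Sqstm1, the gene of the receptor p62 that gathers ubiquitinated proteins, had values from 14.47 to 14.63 in desmin knock-out mice and from 14.39 to 15.30 in wild-type mice. The difference was -0.23 (SE 0.14, adjusted p = 0.3258), and it was -0.10 without wild-type mouse 3, which had the highest value. Nbr1, another receptor for ubiquitinated cargo, differed by -0.02 (SE 0.10). The mitochondrial receptor genes Bnip3 and Bnip3l differed by 0.05 (SE 0.11) and -0.02 (SE 0.10). Nbr1 had -0.08 and Bnip3l -0.07 without wild-type mouse 3.

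Tfeb missed the threshold in the comparison of the regulators. Its values were 10.71, 11.10, 11.25, 11.10 and 11.05 in desmin knock-out mice 1 to 5 and 11.21, 11.27, 11.96, 11.71 and 11.33 in wild-type mice 1 to 5. Of the knock-out mice, 4 were below every wild-type mouse, and knock-out mouse 3 lay between wild-type mice 1 and 2. The difference was -0.45 (SE 0.15, 95% interval -0.78 to -0.13, adjusted p = 0.06146, limma), with means of 11.04 ± 0.20 and 11.50 ± 0.32. Without wild-type mouse 3 it was -0.34 (adjusted p = 0.0669), and without wild-type mouse 1 the adjusted p was 0.0391. The related factor gene Tfe3 differed by 0.03 (SE 0.12), and by 0.12 without wild-type mouse 3. The 4 genes with the TFEB palindrome shown above gave no call: Atg3 had 0.07, Ctsa -0.09, Ctsd -0.38 and Mcoln1 -0.10.

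**Figure D2:**
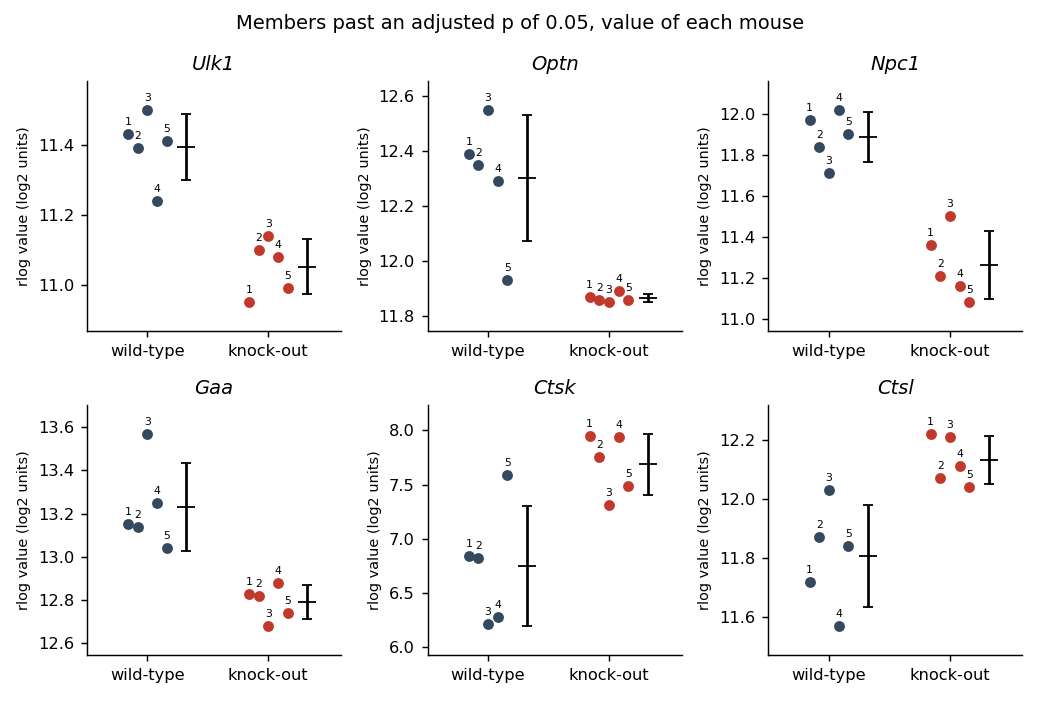
rlog value (log2 units, y axis, a separate range in each panel that does not start at 0) of each mouse for the 6 genes past an adjusted p of 0.05, with the mean and SD beside the points and the mouse number above each. The genotypes do not overlap in 5 panels, and in the panel of Ctsk wild-type mouse 5 (7.59) lies among the knock-out mice.

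The median size of the difference was 0.30 over the 14 lysosomal genes, 0.07 over the 23 genes of the machinery and its regulators and 0.17 over all tested genes, and the difference between the groups was not tested. In the wider list described further on, it was 0.14 for the lysosomal membrane and also for the hydrolases. It was 0.12 for the autophagy core and 0.16 for selective autophagy. For the transcriptional and mTORC1 regulators, a group that also holds sorting receptors, it was 0.21. Of the 14 lysosomal genes, 2 were higher and 2 lower, with a median difference of -0.04.

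Npc1 had the smallest adjusted p of the 37 genes. NPC1 sits in the lysosomal membrane and exports cholesterol, together with the soluble NPC2. Npc1 (ENSMUSG00000024413, chromosome 18, 12189692 to 12236400) had values of 11.36, 11.21, 11.50, 11.16 and 11.08 in desmin knock-out mice 1 to 5 and of 11.97, 11.84, 11.71, 12.02 and 11.90 in wild-type mice 1 to 5. Every knock-out mouse was below every wild-type mouse. The means were 11.26 ± 0.17 and 11.89 ± 0.12 (SD, n = 5 each). The difference was -0.63 (SE 0.10, 95% interval -0.84 to -0.41, adjusted p = 0.0008457, limma), which is 64.8% of the wild-type level on the rlog scale, and it was -0.67 without wild-type mouse 3. Its partner Npc2 had a difference of -0.07 (SE 0.11), which was 0.03 without that mouse. Npc1 shares 511 exon bases with Rmc1 on the other strand, which differed by 0.01, and the sources used here do not say whether reads were counted by strand.

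Lamp2 encodes a main glycoprotein of the lysosomal membrane that is needed for the fusion with autophagosomes. Its values were 12.03, 12.10, 12.25, 12.34 and 12.42 in desmin knock-out mice 1 to 5 and 12.15, 11.87, 11.66, 11.11 and 11.84 in wild-type mice 1 to 5. Of the knock-out mice, 3 were above every wild-type mouse, and wild-type mouse 4 was the lowest of all. The difference of 0.51 (SE 0.16, 95% interval 0.16 to 0.85) missed the threshold, with an adjusted p of 0.05319 (limma). The difference passed in 3 of 18 alternative analyses and not in the other 15. The 3 were without wild-type mouse 1 (adjusted p = 0.0187, limma), with quantile normalization (0.0235) and with sample weights (0.00912). Lamp1, its close relative, differed by -0.10 (SE 0.14), and Mcoln1, the gene of the lysosomal calcium channel mucolipin, by -0.10 (SE 0.11). They differed by 0.04 and -0.02 without wild-type mouse 3.

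The 7 cathepsin genes spread in both directions, with a median of 0.28. Ctsk encodes a cysteine protease that degrades collagen. Ctsk (ENSMUSG00000028111, chromosome 3, 95499256 to 95509362) had values of 7.95, 7.75, 7.31, 7.94 and 7.49 in desmin knock-out mice 1 to 5. The wild-type mice had 6.84, 6.82, 6.21, 6.28 and 7.59. The genotypes overlapped, since wild-type mouse 5 was above knock-out mice 3 and 5, and the other 4 wild-type mice were below all knock-out mice. The means were 7.69 ± 0.28 and 6.75 ± 0.55 (SD, n = 5 each). The difference of 0.94 (SE 0.23, 95% interval 0.44 to 1.44, adjusted p = 0.01528, limma) was the largest of the 37 genes, 192.0% of the wild-type level on the rlog scale, and it was 0.81 without wild-type mouse 3. With no limit on expression the adjusted p was 0.053.

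Ctsl encodes the cysteine protease cathepsin L. Ctsl (ENSMUSG00000021477, chromosome 13, 64359337 to 64370890) had values of 12.22, 12.07, 12.21, 12.11 and 12.04 in desmin knock-out mice 1 to 5 and of 11.72, 11.87, 12.03, 11.57 and 11.84 in wild-type mice 1 to 5. The knock-out mice were all above the wild-type mice, but the lowest of them (12.04) was hardly apart from wild-type mouse 3 (12.03). The means were 12.13 ± 0.08 and 11.80 ± 0.17 (SD, n = 5 each), and the difference was 0.33 (SE 0.10, 95% interval 0.12 to 0.54, adjusted p = 0.03747, limma). This call was the least stable one. It was lost in 12 of 18 alternative analyses, among them the removal of any single mouse other than wild-type mouse 3, with adjusted p-values from 0.00139 to 0.0936 and differences from 0.27 to 0.398. The gene shares 1742 exon bases with Gm47123 and 395 with Gm49230, both at 0.00 in the table.

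The aspartic protease gene Ctsd, by contrast, had a lower mean in desmin knock-out mice (13.92 ± 0.10 against 14.30 ± 0.34). The difference of -0.38 (SE 0.15, adjusted p = 0.1047) did not pass, and the adjusted p was 0.036 without wild-type mouse 5. Ctss, a cysteine protease of antigen-presenting cells, had a difference of 0.42 (SE 0.17, adjusted p = 0.1209). Ctsz had one of 0.28 (SE 0.13, adjusted p = 0.1859). Without wild-type mouse 3 the difference of Ctsz was 0.38 with an adjusted p of 0.0184. Ctsa, a serine carboxypeptidase, differed by -0.09 (SE 0.13), and the means of Ctsb were 13.78 and 13.79. Their differences were 0.03 and 0.08 without wild-type mouse 3.

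Of the 3 other proteins of the lysosomal lumen, the one that fell was Gaa. Acid alpha-glucosidase degrades glycogen in the lysosome, and its loss causes Pompe disease. Gaa (ENSMUSG00000025579, chromosome 11, 119267887 to 119285454) had values of 12.83, 12.82, 12.68, 12.88 and 12.74 in desmin knock-out mice 1 to 5. The values in wild-type mice 1 to 5 were 13.15, 13.14, 13.57, 13.25 and 13.04. All knock-out mice were below all wild-type mice, and mouse 3 was the highest of the latter. The means were 12.79 ± 0.08 and 13.23 ± 0.21 (SD, n = 5 each). The difference was -0.44 (SE 0.11, 95% interval -0.67 to -0.21, adjusted p = 0.01354, limma), which is 73.7% of the wild-type level on the rlog scale, and -0.35 without wild-type mouse 3.

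Hexa, a subunit of the hexosaminidase that degrades gangliosides, had a difference of 0.13 (SE 0.16, adjusted p = 0.6412). Its value in wild-type mouse 3 was 12.21, whereas the other wild-type mice had 11.20 to 11.40 and the knock-out mice 11.54 to 11.73. Without wild-type mouse 3 all knock-out mice were above the wild-type mice, and the difference was 0.31 (adjusted p = 0.00629, limma). Hexa shares 255 exon bases with Tmem202 on the other strand, which itself was higher by 1.31 in desmin knock-out mice (adjusted p = 7.104e-06). Exon bases were shared with another gene by 14 of the 37 genes, and not all are described here. Ctsb shares 774 with Fdft1 (-0.57, adjusted p = 0.02144, limma) and Lamp1 shares 249 with Grtp1 (-0.50, adjusted p = 0.02534, limma), both on the other strand.

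The spread between the mice was much smaller in the knock-out than among wild-type mice. The median SD of the 37 genes was 0.0915 in knock-out mice and 0.219 in wild-type mice, and 36 of the 37 genes (97.3%) had the larger SD in wild-type mice. Without wild-type mouse 3 the wild-type median was 0.135, and 28 genes (75.7%) had the larger SD there. Over all tested genes the medians were 0.127 and 0.246, or 0.178 without that mouse, and 82.9% and 68.4% of the genes had the larger SD in wild-type mice, so the smaller spread of the knock-out was found across the transcriptome. Mouse 3 had the highest wild-type value of 26 genes, the lowest of 6 and a middle one of 5. Without it the median difference of the 37 genes was 0.04. The 6 called genes were all past the threshold without this mouse, and Ctsz and Hexa were then called higher too, so that 4 genes were higher and 4 lower.

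**Figure D3:**
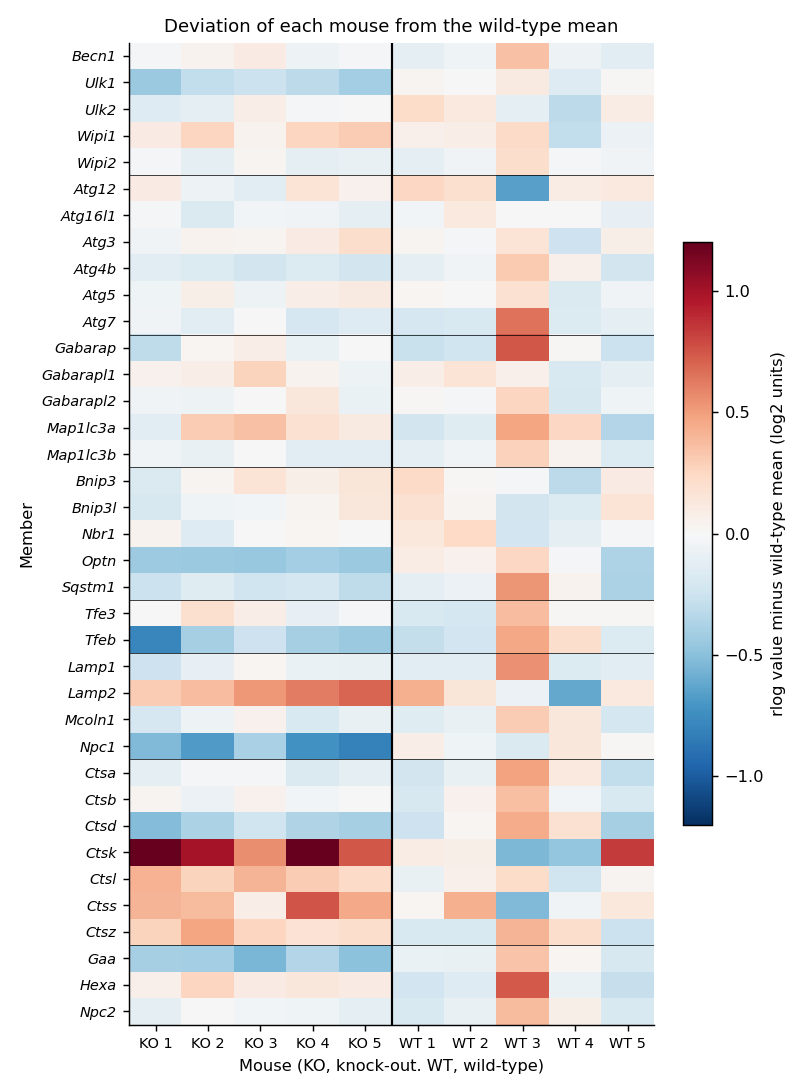
rlog value of each mouse minus the wild-type mean of that gene (colour, log2 units) for the 37 genes (rows) in the 5 knock-out and 5 wild-type mice (columns). The columns of the knock-out mice resemble each other, with Ulk1, Optn, Npc1 and Gaa low and Ctsk and Ctsl high in all 5, whereas wild-type mouse 3 is the highest wild-type mouse for 26 genes.

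A wider list of 137 other autophagy and lysosome genes was examined in the same fit, of which 134 passed the expression limit. Of these, 4 were higher (2.99%) and 10 lower (7.46%), with a median difference of -0.01. The shares over all tested genes were 7.70% and 5.99%, as above. The 35 further genes of the autophagy core had 6 lower and 0 higher. They included Snap29, a SNARE of the fusion between autophagosome and lysosome (-0.55, SE 0.11, adjusted p = 0.00385), Rab7, the small GTPase of late endosomes (-0.40, SE 0.09, adjusted p = 0.01169), and Atg9a, the membrane protein of the vesicles that seed the autophagosome (-0.71, SE 0.16, adjusted p = 0.008691). All 5 knock-out values were below all 5 wild-type values for these 3 genes. All 3 kept an adjusted p under 0.05 in 18 of 18 alternative analyses. The stricter threshold of 0.01, not counted in these 18, was passed by Snap29 and Atg9a but not by Rab7. Atg9a lies 0.168 Mb from Des on chromosome 1, and effects of the altered locus on its neighbours cannot be told apart from other effects of the genotype. The other 3 lower genes, Rubcn (-0.28), Vmp1 (-0.37) and Vps33a (-0.30), are named after their values were seen to complete the group, and they lost their call in 11, 12 and 6 of the 18 alternatives.

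The 15 further genes of selective autophagy gave 0 calls, with 1 gene at an unadjusted p under 0.05 (limma). The 30 tested genes of the lysosomal membrane and the proton pump gave 2 in each direction. Lower were Laptm4b, a lysosomal membrane protein (-0.87, SE 0.12, adjusted p = 0.0002376), and Tpcn1, an endolysosomal cation channel (-0.56, SE 0.14, adjusted p = 0.01905). Higher were Atp6ap2, an accessory subunit of the proton pump (0.85, SE 0.15, adjusted p = 0.001899), and Atp6v0e, a subunit of its membrane part (0.41, SE 0.11, adjusted p = 0.0186). Tpcn1 lost its call in 2 of the 18 alternatives, with no expression limit (adjusted p = 0.0544) and without knock-out mouse 1 (0.0551). Atp6v0e lost it in 4, with median centring (0.0515) and without knock-out mouse 2 (0.0535), 4 (0.0507) or 5 (0.0502). The 36 tested hydrolases and activators had 2 higher genes and 0 lower genes. These were Lgmn, the asparaginyl protease legumain that processes cathepsins (0.46, SE 0.10, adjusted p = 0.005726), and Galns, a sulfatase of keratan sulfate (0.63, SE 0.16, adjusted p = 0.01725). The last group, of transcriptional and mTORC1 regulators, also holds the sorting receptor genes Igf2r, M6pr and Sort1. Of its 18 tested genes 2 were lower. These were Deptor, an inhibitory subunit of mTOR complexes (-0.73, SE 0.13, adjusted p = 0.00203), and Sort1, the sorting receptor sortilin (-0.68, SE 0.09, adjusted p = 0.0002144).

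**Figure D4:**
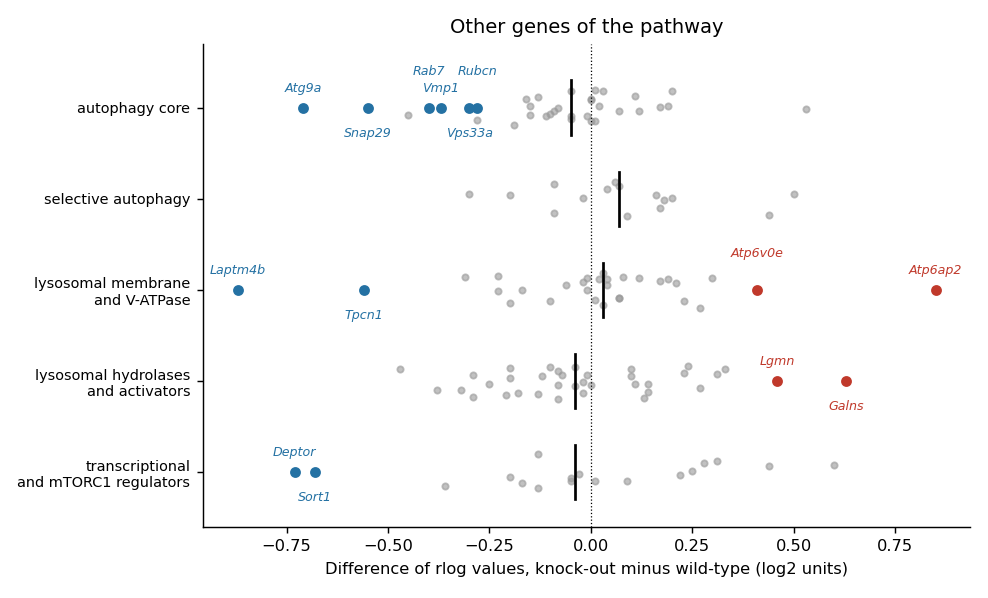
Difference of the rlog values (knock-out minus wild-type, log2 units, x axis) of the 134 tested further genes in their 5 groups (y axis), each point a gene and the black line the median of the group. The medians lie near 0, the 10 lower genes (blue) come from 3 groups, 6 of them from the autophagy core, and the 4 higher genes (red) come from 2 groups.

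Markers of other cell types and of fiber types moved with the genotype to different degrees. Macrophages are rich in lysosomes, and 0 of their 15 markers were called in either direction (limma), with 0 at an unadjusted p under 0.05. The summed macrophage level, relative to the wild-type median, was 0.80 to 1.12 in knock-out mice and 0.84 to 1.05 in wild-type mice. Their part in the values of Ctsk and Ctsl was not tested. Of the 10 fibroblast markers, 5 were higher and 1 lower, with Lum at 0.99, Col1a2 at 0.64 and Thy1 at -0.62, and their sum was 1.12 to 1.69 in knock-out mice and 0.85 to 1.57 in wild-type mice. The mouse with the highest wild-type sum of fibroblast markers was mouse 5, which also had the highest wild-type value of Ctsk. Knock-out mouse 3, however, had a lower sum than wild-type mouse 1 (1.119 against 1.332) but a higher Ctsk value (7.31 against 6.84). The part of fibroblasts in the result was not tested.

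The list of fast fiber markers also holds Acta1 and Ckm, which are not confined to fast fibers. Its sum was lower, at 0.76 to 0.87 in knock-out mice and 0.90 to 1.79 in wild-type mice, the latter value in mouse 3. Of its 10 genes, 2 were called lower (Actn3 by -0.97 and Myh4 by -0.71). The fast myosin gene Myh1 had a difference of 0.58 with the opposite sign, which did not pass (adjusted p = 0.1325, limma). Of the 7 slow fiber markers 2 were higher and 1 lower (Tnnt1 by 1.70 and Tnni1 by 0.91, with Myl3 the lower one), with sums of 1.19 to 1.72 and 0.81 to 1.73. The sum of 1.73 belonged to wild-type mouse 3. The next highest wild-type sum was 1.17, in mouse 5, which was below the sums of all knock-out mice. Endothelial markers were lower for 4 of 7 (Cdh5 -0.52, Pecam1 -0.49 and Tie1 -0.48), with sums of 0.61 to 0.84 and 0.84 to 1.11. Erythroid markers were lower for 2 of 5, with sums of 0.59 to 0.89 and 0.84 to 2.17, the last value in wild-type mouse 3. The markers of adipocytes and of Schwann cells gave 0 calls and 0 at an unadjusted p under 0.05 (limma), with sums of 0.59 to 1.45 and 0.85 to 1.17 in knock-out mice against 0.60 to 1.36 and 0.69 to 1.21. No marker was at 0 in any list. The part of fiber types and endothelium in the lower levels of Ulk1, Optn, Npc1 and Gaa was not tested.

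**Figure D5:**
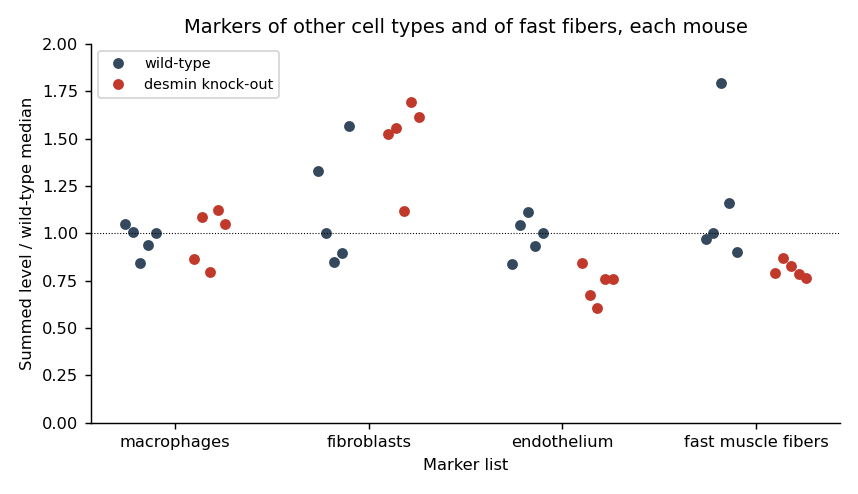
Summed linear level of 4 marker lists relative to the wild-type median (y axis, ratio) in each mouse, wild-type in dark blue and desmin knock-out in red. Macrophage markers overlap, and fibroblast markers reach 1.69 in knock-out mice. The sums of the fast fiber list, which includes Acta1 and Ckm, lie below every wild-type mouse in all 5 knock-out mice. Endothelial markers range from 0.61 to 0.84 in knock-out mice and from 0.84 to 1.11 in wild-type mice.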

How the data were processed

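Gastrocnemius RNA of 10 mice, 5 of each genotype, was analysed. The submitters' processing notes name cutadapt 2.5, STAR 2.5.4a, Subread 1.6.1 with featureCounts, DESeq2 and GRCm38. The values deposited by the authors are rlog values on a log2 scale from DESeq2, 1 column per mouse, and all 10 columns were used. The settings of the transformation and the strand setting of the counting are not given in the sources used here. Since counts were not used, a linear model was fitted in place of the authors' count test.

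Genes whose mean over the mice reached log2(10) (14289 of 54232) entered a fit across all of them in limma 3.58.1 under R 4.3.3 (lmFit, eBayes with trend=TRUE, two-sided, no covariate, Benjamini-Hochberg adjustment over all tested genes). Intervals are 95% intervals of this fit. The script was tested on simulated data with the same SD in both genotypes, independent genes and no outlying mouse. That test did not cover the unequal spread of the genotypes or a mouse such as wild-type mouse 3. Positions and overlaps came from GENCODE M21 and promoters from RefSeq (GRCm38.p6), in Python 3.11.15 with pandas 2.3.3. The mice are labelled as separate animals.

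The genes, the wider list and the markers were chosen with earlier results of these data known. All 37 genes are accounted for. Genes past the threshold are given with every mouse, as are a few close to it. From the wider list up to 3 genes per group with the smallest adjusted p were named, and from the markers up to 3 with the largest difference. Beyond this rule, the called genes Rubcn, Vmp1, Vps33a and Tpcn1 were named. So were the markers Myh1, for its opposite sign, and Myh7, for its small difference. Alternatives were the expression limit (none, or log2(50)), centring of each mouse on its median or quantile normalization, eBayes without a trend, limma's sample weights, a block for the replicate number, a covariate from 4 Y-linked transcripts (the labels give no sex), each mouse left out in turn, and an adjusted p under 0.01. For the wider list they were added after seeing the data. Counts out of 18 alternatives for single genes leave out the adjusted p under 0.01.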

Additional observations from a re-analysis of the deposited data

Results flagged for a closer look

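In 7 of the 74 groups of 5 values (37 genes in both genotypes), 1 mouse lay far from the others, with a gap to its nearest neighbour of more than 0.71 of the range of the group. Chance gives about 3.7 such groups. Wild-type mouse 3 accounted for 6 of the 7, and was above the others in 5. Its value was 11.80 for Becn1 (next 11.40), 9.04 for Atg7 (next 8.28), 13.59 for Gabarap (next 12.86), 15.04 for Lamp1 (next 14.36) and 12.21 for Hexa (next 11.40). For Atg12 the same mouse was below the others, at 9.47 (next 10.21). The remaining value was that of Nbr1 in desmin knock-out mouse 2, 11.78 (next 11.93). None of the 6 called genes was among them. Of these 7 genes, only Hexa passed the threshold when wild-type mouse 3 was left out (0.31, adjusted p = 0.00629, limma).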

How the results depend on the processing

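Of 666 values of single genes under the alternatives, 569 kept their direction and their side of the threshold, 14 lost the call, 15 gained one and 68 changed sign. The 68 belonged to 19 genes without a call, and 0 of the 6 called genes changed sign. Optn, Npc1 and Gaa had an adjusted p under 0.05 in 18 of 18 alternative fits, Ulk1 and Ctsk in 17 and Ctsl in 6. The stricter threshold of 0.01 is not among these 18, and of the 6 called genes only Npc1 passed it. With an unknown depth, the precision of low genes such as Ctsk could not be judged from counts.

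The 2 higher genes became 0 with no expression limit or at an adjusted p under 0.01, 1 with median centring and 7 with sample weights. Leaving out single mice gave 1 to 4, with 4 without wild-type mouse 3, 2 without wild-type mouse 1 and 1 without any other. The 4 lower genes became 1 at an adjusted p under 0.01, 6 with sample weights and 4 to 5 without single mice. Over all tested genes, 4220 were called with sample weights and 994 at an adjusted p under 0.01, instead of 1956. Median centring changed the split from 1100 higher and 856 lower to 942 and 979. For the wider list, sample weights gave 19 higher and 23 lower genes, an adjusted p under 0.01 gave 2 and 5, and leaving out single mice gave 3 to 8 higher, with 8 without wild-type mouse 3. The cause of these shifts was not tested, apart from the stricter threshold.

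No pairing of the mice by replicate number was visible. The correlations of the deviations of same-numbered mice were between -0.219 and 0.0673, and none was highest with its own number. Such correlations cannot show whether same-numbered mice were related or handled together. With the replicate number as a block, 1 gene was higher and 4 were lower. Ulk1 (adjusted p = 0.0531) and Ctsl (0.0772) were then not past the threshold, while Tfeb was (0.0244).

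The sign changes were these. With median centring Becn1 had -0.036, Atg5 -0.014, Atg12 -0.020 and Tfe3 -0.010. With quantile normalization Ulk2 had 0.033, Map1lc3b 0.001, Gabarap 0.012, Gabarapl2 0.013, Nbr1 0.031, Bnip3l 0.005, Tfe3 -0.000, Lamp1 0.065 and Ctsb 0.109. With sample weights Atg7 had 0.016, Atg12 -0.106, Gabarap 0.166, Gabarapl1 -0.033, Gabarapl2 0.037, Bnip3 -0.006, Lamp1 0.025, Ctsa 0.023, Ctsb 0.052 and Npc2 0.045. With the covariate from Y-linked transcripts Wipi2 had 0.005, Atg7 0.066, Atg12 -0.159, Map1lc3b 0.009, Gabarap 0.152, Gabarapl2 0.023, Bnip3 -0.033, Lamp1 0.021, Mcoln1 0.010, Ctsa 0.069, Ctsb 0.092 and Npc2 0.061. Without single mice the differences ranged from -0.119 to 0.012 for Ulk2, -0.025 to 0.093 for Becn1, -0.014 to 0.075 for Atg5, -0.154 to 0.060 for Atg7, -0.140 to 0.085 for Atg12, -0.122 to 0.131 for Gabarap, -0.059 to 0.054 for Gabarapl2, -0.079 to 0.037 for Nbr1, -0.029 to 0.109 for Bnip3, -0.073 to 0.029 for Bnip3l, -0.021 to 0.125 for Tfe3, -0.142 to 0.036 for Lamp1, -0.163 to 0.033 for Ctsa, -0.054 to 0.085 for Ctsb and -0.114 to 0.030 for Npc2.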
